A study of Mus musculus with 2 samples.

Results

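Tendon cells that carried transcripts of Tnmd or Kera made up 441 of the 16430 barcodes that passed the cell filters in 2 single-cell RNA libraries of injured mouse hindlimbs. The control library held 341 of them and the irradiated library 100. Tnmd encodes tenomodulin, a membrane protein of mature tendon cells, and Kera encodes keratocan, a proteoglycan of the collagen matrix. The cells were picked from unsorted tissue by their transcripts, counted as UMIs (unique molecular identifiers, each standing for 1 captured RNA molecule). A barcode first needed 500 genes or more, 1000 UMIs or more and a mitochondrial share of its UMIs no higher than 10%. It then needed at least 50 UMIs per 10000 of Col1a1, Col1a2 and Col3a1 together, the main fibrillar collagen genes, and at most 1 UMI of Ptprc, the gene of the leukocyte antigen CD45. It also had to hold fewer than 10 UMIs per 10000 of the basal keratins Krt5 and Krt14, at least 3 of Tnmd and Kera together, and fewer than 2 of the proliferation genes Top2a and Mki67.

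Both libraries came from male C57BL/6 mice (C57BL/6J in the treatment protocol) aged 8 to 10 weeks, which had a burn over 30% of the body surface on the back and a cut through the left Achilles tendon, a model of heterotopic ossification. The tenotomy site was collected 7 days after injury, from burn/tenotomy mice without radiation for the control library and from burn/tenotomy mice given 1 dose of 7 Gy of X-rays to the injury site for the irradiated library. The protocol names arms treated on postoperative day 1 and day 3 with 10 mice each, the series text points to day 3, and how many mice were pooled into a library is not given in the sources used here. With 1 library a group no difference between control and irradiated tissue can be tested: every interval below is a 95% interval that covers counting error only and says nothing of the variation between mice.

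Tendon cells, or tenocytes, lie in rows between the type I collagen fibrils that they build and maintain. The transcription factor scleraxis, encoded by Scx, marks them from the embryo onwards and acts upstream of Tnmd, and small leucine-rich proteoglycans such as fibromodulin, the product of Fmod, set the width and spacing of the fibrils. After a tenotomy combined with a burn, mesenchymal cells at the tendon can pass through a cartilage stage and form bone, and postoperative radiation is given in the clinic to prevent such bone. The study asked how radiation acts on the fate of these mesenchymal cells.

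In GRCm38 the marker genes lie at chrX:133850980-133865577 for Tnmd, chr10:97606879-97613692 for Kera, chr1:134037254-134048277 for Fmod and chr15:76457452-76459458 for Scx, all on the plus strand. Fmod and Scx were not part of the selection, so they check the name of the cells. UMIs of both genes were present in 256 of the 341 control cells (75.1%) and 69 of the 100 irradiated cells (69.0%), against 23.3% and 13.9% of the other collagen-producing cells, which passed every step except the one on Tnmd and Kera. After every cell was thinned to 2000 UMIs, Scx was detected in 36% of control and 37.1% of irradiated tendon cells, in 7.43% and 5.25% of the other collagen-producing cells, and in 0.985% and 0.288% of leukocyte barcodes (at least 2 UMIs of Ptprc), taken as the background level, whose source was not tested. Fmod behaved alike, at 56.5% and 59.8% of tendon cells and 15.1% and 14.0% of the other collagen-producing cells. The tendon name held for the group on both markers, though not for every cell. Scx acts upstream of Tnmd and so is not independent of the selection.

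The threshold divided a continuous range of levels. Cells just outside it, at 2 to 3 UMIs of Tnmd and Kera per 10000, numbered 86 (control) and 16 (irradiated), with Fmod at 284 and 164, Scx at 114 and 203 and Thbs4 at 1432 and 1715 CPM (UMIs per 1000000 UMIs of the summed cells). Cells just inside it, at 3 to 4 UMIs per 10000, numbered 49 and 15, with Fmod at 277 and 267, Scx at 174 and 140 and Thbs4 at 1654 and 3010 CPM. Most members were low in the selected genes: 201 control and 56 irradiated cells had 3 to 10 UMIs per 10000, 113 and 37 had 10 to 30, and 27 and 7 had 30 or more. Tnmd and Kera were found together in 173 control (50.7%) and 59 irradiated cells (59.0%), Tnmd without Kera in 163 (47.8%) and 35 (35.0%), and Kera without Tnmd in 5 and 6. Cells with both genes were richer in the markers that the selection did not use, with Scx at 411 CPM in control and 588 CPM in irradiated cells, against 168 and 222 CPM in cells with Tnmd alone.

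The control library totalled 180080740 UMIs and the irradiated one 111753092. Tendon cells were deep in both, with a median of 25240 UMIs (range 1001 to 86121) and 5299 genes in the control and 29038.5 UMIs (range 1428 to 87039) and 5513 genes in the irradiated library. Of the deposited barcodes 32 were shared between the libraries, among them 4 control members and no irradiated member. One UMI of Ptprc was present in 16 and 6 members, and a doublet score above 0.25 in 1 and 0. The depth behind a summed value was therefore 8774324 UMIs for the control and 2898074 UMIs for the irradiated tendon cells.

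Tendon cells were a smaller share of the irradiated tissue but not of its connective tissue cells. They were 3.69% of the filtered barcodes in the control library (exact Clopper-Pearson interval 3.32 to 4.10%) and 1.39% in the irradiated one (1.13 to 1.69%), a ratio of 0.377 (0.298 to 0.472). Among collagen-producing, non-dividing cells the shares were 15.0% (13.6 to 16.6%) and 15.8% (13 to 18.9%), a ratio of 1.05 (0.833 to 1.32). Collagen-producing, non-dividing cells were 24.6% and 8.80% of the filtered barcodes, and leukocyte barcodes numbered 2898 (control) and 3956 (irradiated), so a share of all barcodes moved with the other cell types in the suspension. Dividing cells, which the selection left out, were 39 of 380 tendon cells in the control (10.3%, 7.40 to 13.8%) and 6 of 106 in the irradiated library (5.66%, 2.11 to 11.9%), a ratio of 0.552 whose interval of 0.191 to 1.31 included equality. In the other collagen-producing cells the dividing share was 11.4% and 4.99%, a ratio of 0.437 (0.284 to 0.647).

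Summed over cells, Scx was higher in irradiated tendon cells, a call that was lost in some subsets of them. Most other core tendon genes were within 1.5-fold of their control level. Scx stood at 307 CPM in control and 469 CPM in irradiated tendon cells, in 270 and 70 cells, a log2 ratio of 0.61 (0.51 to 0.70). A gene is called here when its ratio is at least 1.5-fold, its interval leaves out equality and it has at least 20 UMIs over both libraries. Of 12728 genes tested, 8.17% were called higher and 7.41% lower, and the median log2 ratio was -0.05. Counts of called genes in the lists below are to be read beside these shares. In the other collagen-producing cells Scx was at 54.0 and 45.5 CPM, a log2 ratio of -0.25, so the difference of the ratios was 0.86 (0.70 to 1.02). Of the genes tested for that difference, 5.1% were called higher in tendon cells and 4.43% lower. Without the 9 control and 11 irradiated cells with at least 2 UMIs of Col22a1, described below, Scx was no longer called. It was then at 296 and 330 CPM, a log2 ratio of 0.16 (0.04 to 0.27). In the 145 control and 87 irradiated cells without any UMI of H19, also described below, it was at 414 and 460 CPM (0.15). There it was not called either. Which cells carried the Scx difference was not tested.

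**Figure D1:**
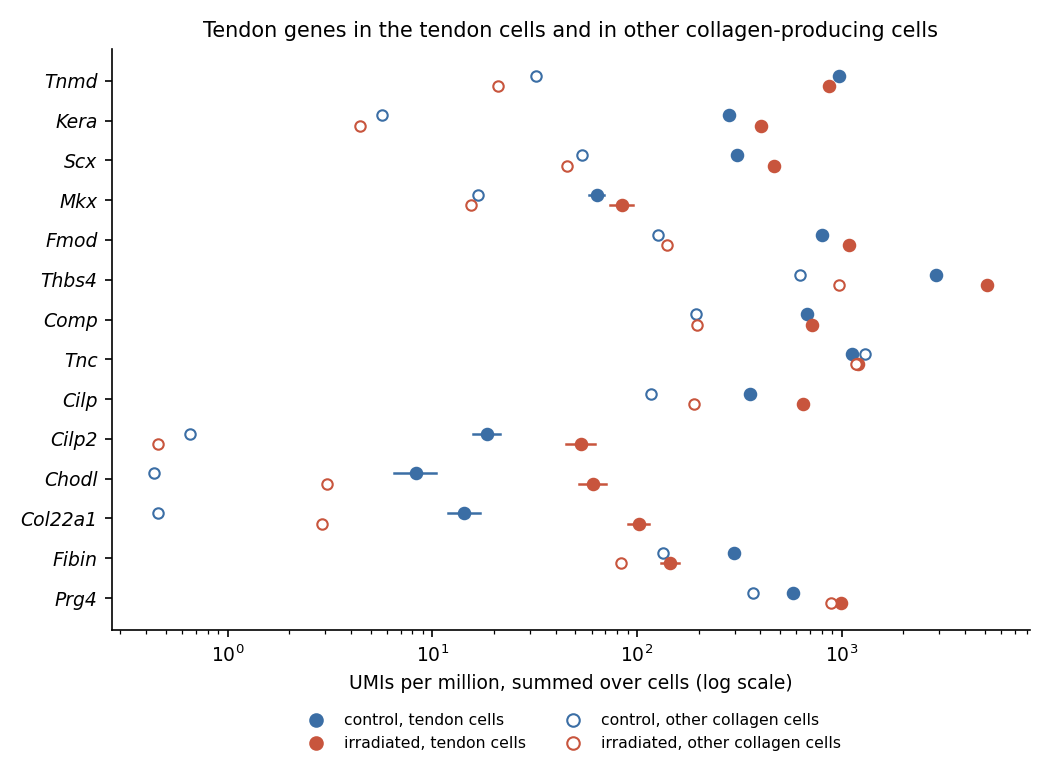
Levels of 14 tendon genes, in CPM on a log axis, summed over the tendon cells (filled circles, with 95% counting intervals where wider than the symbol) and over the other collagen-producing cells (open circles) of the control (blue) and the irradiated (red) library. Tnmd and Kera set the selection; Scx reached 469 CPM in irradiated against 307 in control tendon cells, and Chodl and Col22a1 show the widest gaps between the libraries.

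Among 19 tested genes of the tendon matrix, other than the selected Tnmd and Kera, 8 rose and 1 fell, with a median log2 ratio of 0.43 against 0.16 in the other collagen-producing cells. Thbs4, a thrombospondin of tendon and muscle attachments, rose from 2876 to 5101 CPM, a log2 ratio of 0.83 (0.80 to 0.86). Cilp, a matrix protein that binds growth factors, rose from 354 to 646 CPM (0.87). Cilp2, its relative, rose from 18.5 to 53.1 CPM (1.53) in tendon cells and was at 0.655 and 0.459 CPM in the other collagen-producing cells, a difference of ratios of 2.04 (0.73 to 3.34). The fall was in Fibin, a secreted protein gene, from 296 to 145 CPM (-1.03), present in 289 control and 64 irradiated cells. Neither Comp, a fibril-bridging glycoprotein (679 and 712 CPM, log2 ratio 0.07), nor Tnc, the tenascin of injured tendon (1125 and 1201 CPM, 0.09), nor Fmod (802 and 1085 CPM, 0.44) was called.

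Of 12 tested transcription factors of tendon, 3 were called higher and none lower, with a median of 0.31. Besides Scx these were Klf4, a zinc finger factor of many cell types, at 129 and 243 CPM (0.92), and Eya1, present in only 8 control and 7 irradiated cells (1.99). The homeobox gene Mkx, which keeps tendon cells differentiated, was at 63.6 and 84.2 CPM (0.40) and Egr1, which answers to load, at 409 and 499 CPM (0.29). Tnmd itself stood at 975 and 871 CPM and Kera at 280 and 403 CPM; both were used in the selection and are given as a description.

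A small set of cells carried genes of the junction between tendon and muscle. Col22a1 encodes a collagen of that junction, and Chodl a lectin of the cell membrane. At least 2 UMIs of Col22a1 were present in 9 of 341 control cells (2.64%, 1.21 to 4.95%) and in 11 of 100 irradiated cells (11.0%, 5.62 to 18.8%), a ratio of 4.17 (1.57 to 11.4). Of these cells 7 of 9 and 9 of 11 also held Chodl. Summed over all tendon cells, Col22a1 was at 14.4 and 102 CPM (log2 ratio 2.83) and Chodl at 8.32 and 60.7 CPM (2.87). Within the Col22a1 cells, chosen by that gene, Chodl was at 391 and 360 CPM. They held Scx at 947 CPM in control and 1591 CPM in irradiated cells, Thbs4 at 7432 and 5433 CPM and Tnmd at 1842 and 1528 CPM. Reg3g, an antimicrobial lectin gene, was at 132 and 1058 CPM in these cells, with 84.6% of all irradiated Reg3g UMIs in 1 cell. Bst2, an interferon-induced gene, was at 92.7 and 824 CPM in these cells.

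The imprinted genes H19, Igf2 and Mest were lower in irradiated tendon cells. H19, a long noncoding RNA made mainly before birth, at chr7:142575529-142578143, fell from 523 CPM in 196 control cells to 41.8 CPM in 13 irradiated cells, a log2 ratio of -3.65 (-3.92 to -3.39). Igf2, the fetal growth factor encoded beside it at chr7:142650766-142666816, fell from 43.8 CPM (384 UMIs in 54 cells) to 1.04 CPM (3 UMIs in 3 cells), a log2 ratio of -5.40 (-7.69 to -3.84). Mest, an imprinted gene of mesenchyme, fell from 634 to 147 CPM (-2.11). Both H19 and Igf2 fell further in tendon cells than in the other collagen-producing cells, where H19 was at 616 and 187 CPM and Igf2 at 49.0 and 28.0 CPM: the differences of the log2 ratios were -1.92 (-2.19 to -1.66) and -4.59 (-6.24 to -2.95). For Mest that difference had the opposite sign, 0.48, and was not called.

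Over the list of imprinted genes and insulin-like growth factor genes, 10 of 23 fell and 3 rose, with a median of -0.43, the same as in the other collagen-producing cells. Peg3 (-1.46), Plagl1 (-0.97), Grb10 (-0.96) and Cdkn1c (-0.96), which are imprinted regulators of growth, fell together with Igf1, the main postnatal growth factor of the family, from 1399 to 783 CPM (-0.84). Among binding proteins of these growth factors, Igfbp4 fell from 1556 to 833 CPM (-0.90) whereas it stood at 1759 and 1810 CPM in the other collagen-producing cells, and Igfbp6 rose from 186 to 477 CPM (1.36). Igfbp5 (0.67) and Igfbp2 (2.45) were also called higher, the latter with 84.4% of its irradiated UMIs in 1 cell. Without the top cell of each gene in each library Igfbp5 was at 0.45 and Igfbp2 at 0.32, neither called. The receptors did not pass: Igf1r was at 159 and 135 CPM and Igf2r at 95.9 and 117 CPM.

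H19 split the control tendon cells, and the tendon genes followed the split. This view was chosen after the values were seen and carries no test. At least 3 UMIs of H19 per 10000 were present in 138 of 341 control cells (40.5%, 35.2 to 45.9%) and in 4 of 100 irradiated cells (4.0%, 1.1 to 9.93%), while 145 control and 87 irradiated cells had no UMI of it. Depth was alike, with a median of 24193 UMIs in the H19-high control cells, 25639 in the control cells without H19 and 27694 in the irradiated cells without H19. Of the 54 control cells with Igf2, 46 (85.2%) were H19-high. Within the control library, H19-high cells were poorer in Fmod (377 against 1126 CPM in cells without H19) and Scx (184 against 414 CPM). They were also poorer in Mkx (26.9 against 97.5 CPM) and Thbs4 (1384 against 4135 CPM). Kera, used in the selection and given as a description, was at 29.1 against 467 CPM. Of 19 genes of the tendon matrix list 13 were lower and 3 higher in H19-high cells, with a median log2 ratio of -1.58, beside 5.37% of 11539 genes called lower, 9.85% called higher and a median of 0.08 over all genes tested in this split.

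The H19-high control cells held other genes instead. Sfrp1 and Sfrp2, secreted inhibitors of Wnt signalling, were at 879 and 899 CPM against 153 and 90.9 CPM in control cells without H19. The heparin-binding growth factor Ptn was at 1253 against 389 CPM, and Pdzrn4, which encodes a protein with PDZ and RING domains, at 286 against 79.9 CPM. The cartilage collagen Col9a1 was at 39.3 against 1.84 CPM and Igf2 at 114 against 2.10 CPM. Fgf7, a growth factor for epithelium, was at 76.4 against 12.6 CPM. Mmp13, a collagenase of cartilage and bone remodelling, and Spp1, osteopontin, went the other way, at 193 against 1253 CPM and 235 against 2271 CPM. No UMI of Col22a1 or Chodl was found in the 138 H19-high cells.

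**Figure D2:**
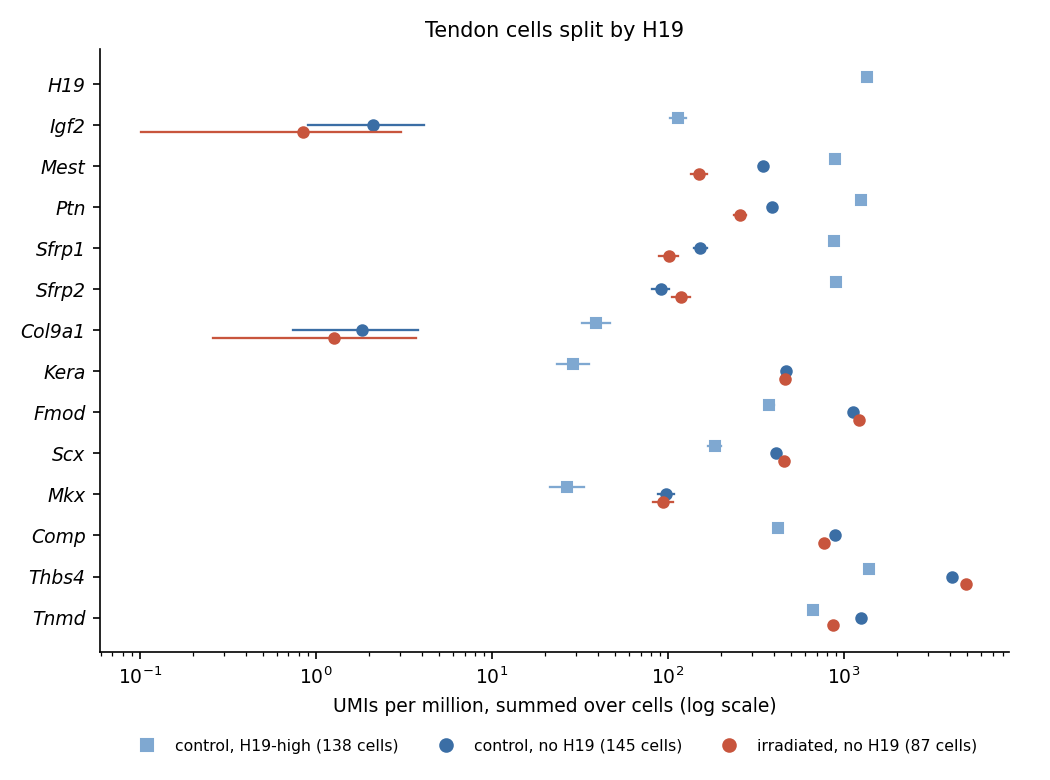
Levels of 14 genes, in CPM on a log axis with 95% counting intervals, in control tendon cells with at least 3 UMIs of H19 per 10000 (light squares, 138 cells), control cells without H19 (blue circles, 145 cells) and irradiated cells without H19 (red circles, 87 cells). H19 is absent from the last 2 groups by choice, and Tnmd and Kera were used in the selection. For Fmod, Scx, Mkx and Thbs4 the circles lie together and the squares lie lower.

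Among cells without any UMI of H19 several tendon genes were close in both libraries, and others were not. Fmod was at 1126 and 1214 CPM (log2 ratio 0.11), Scx at 414 and 460 CPM (0.15) and Thbs4 at 4135 and 4932 CPM (0.25), none called. Kera, used in the selection like Tnmd, was at 467 and 465 CPM. The Scx and Thbs4 calls over all tendon cells were thus lost in cells without H19, and Tnmd stood at 1258 and 864 CPM (-0.54). Cilp (0.24), Timp1 (0.18), Prg4 (0.38), Dcn (0.48), Pdgfa (0.43) and Col5a3 (0.55) lost their higher calls there. Has2 (-0.19), Cxcl12 (-0.35), Ogn (-0.43), Plagl1 (-0.41) and Cdkn1c (-0.52) lost their lower calls. Mcm4 (-0.65) and Mcm5 (-1.57) lost theirs too, but stayed beyond 1.5-fold, and only their intervals no longer left out equality. The values of all these genes over all tendon cells are given with their gene groups. Mest (347 and 150 CPM, -1.21), Fibin (321 and 139 CPM, -1.20) and Pdzrn4 (79.9 and 32.1 CPM, -1.32) were still called lower. Cilp2 (0.92), Chodl (2.33) and Col22a1 (1.83) were still called higher, as were the p53 target Cdkn1a (2.75) and the interferon-stimulated gene Bst2 (2.58). Bst2 differed across the split too, at 58.8 CPM in H19-high control cells and 126 CPM in control cells without H19, and of 27 interferon-stimulated genes 5 were lower and 2 higher in H19-high control cells, with a median of -0.27.

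Summed over all tendon cells, cartilage collagens and several other cartilage matrix genes were lower in the irradiated library. Of 18 tested cartilage genes 8 fell and 1 rose, with a median of -0.55 against -1.11 in the other collagen-producing cells. Col2a1, the main collagen of cartilage, fell from 19.9 CPM (175 UMIs in 61 cells) to 1.73 CPM (5 UMIs in 5 cells), a log2 ratio of -3.53 (-5.17 to -2.28). Chains of type IX collagen, which coats cartilage fibrils, fell as well: Col9a1 went from 18.2 to 1.38 CPM (-3.72) and Col9a2 had 102 UMIs in 62 control cells and none in irradiated cells, which sets the fall at a log2 ratio of -3.49 or beyond for a floor of 3 counts. UMIs of Col2a1 or Col9a1 were present in 116 of the 341 control cells (34.0%, 29.0 to 39.3%) and in 7 of the 100 irradiated cells (7.00%, 2.86 to 13.9%). Matn3 (-2.00), Matn4 (-1.77), Cnmd (-2.99) and Ucma (-1.60), genes of cartilage matrix, fell too. Sox9, the transcription factor of cartilage, was at 116 and 110 CPM (-0.07), and the proteoglycan gene Acan at 569 and 381 CPM (-0.58), neither called. The gene that rose, Chad, had 42.4% of its irradiated UMIs in 1 cell. In the cells lowest in Tnmd and Kera (201 and 56 cells, median -1.18) 11 of 18 fell and 1 rose. In the middle group (113 and 37 cells, median -0.53) 6 of 16 fell and 0 rose. In the top group (27 and 7 cells, median 0.18) 2 of 11 fell and 3 rose. Within the control library 10 of 18 were higher and 3 lower in H19-high cells (median 0.72). In cells without H19 Col2a1 was still called lower (-2.24). The link to the H19 split was not tested.

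Bone genes were few. Of 9 tested, 3 fell and none rose, with a median of -0.22: Alpl, the phosphatase of mineralizing cells, had 46 UMIs in 24 control cells and 3 UMIs in 2 irradiated cells (-2.34, -4.67 to -0.70), and Dlx5 (-2.31) and Cadm1 (-1.51) were the others. Runx2, the early factor of bone formation, was at 84.8 and 72.8 CPM (-0.22) and Spp1 at 1265 and 1125 CPM (-0.17). In the other collagen-producing cells Spp1 stood at 399 and 745 CPM, a log2 ratio of 0.90. Bglap and Col10a1, markers of mature osteoblasts and of hypertrophic cartilage, had 0 UMIs in the tendon cells of both libraries.

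Every tested interferon-stimulated gene rose, 35 of 35, with a median log2 ratio of 3.01 against 2.63 in the other collagen-producing cells. These genes answer to interferons and restrict viruses. Bst2, the membrane tether tetherin, rose from 97.7 CPM in 196 control cells to 707 CPM in 92 irradiated cells (2.86). Ifi27l2a rose from 13.8 to 364 CPM (4.72) and Irf7, the factor that amplifies the response, from 5.24 CPM in 15 cells to 80.7 CPM in 53 cells (3.94). Isg15, a ubiquitin-like modifier, rose from 23 to 237 CPM (3.36), Ifit1 from 11.6 to 131 CPM (3.50) and Ifit3 from 12.2 to 107 CPM (3.14). The signalling factors Stat2 (1.61) and Irf9 (0.76) rose less, and the receptor genes Ifnar1 (0.18) and Ifnar2 (0.15) were not called. In cells with 10 or more UMIs of Tnmd and Kera per 10000 the median of the list was 2.18 and Irf9 (0.49) was not called. The chemokine Cxcl10 (3.79) was uneven, with 49.1% of its irradiated UMIs in 1 of 23 cells.

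Promoters of some of these genes are shown because many genes of the interferon list hold the same motif there. The interferon-stimulated response element was searched as GAAANNGAAA, or TTTCNNTTTC on the other strand, in RefSeq promoter windows of GRCm38.p6 that run from 250 bases before to 50 bases after each gene's start. It was present in 17 of the 27 tested interferon-stimulated genes that have a window (63.0%). The share was 3.63% of the 9914 genes tested in tendon cells that have one, and 3.44% of all 32851 windows. Irf7 and Irf9 held no match, and Ifi27l2a had no window. The stretches printed below hold more than 1 match each, whereas Cxcl10 and Rsad2, not printed, held 1 before the start. Of the MHC class I genes 5 of 17 held it, of the p53 targets 1 of 21, of the imprinted and growth factor genes 1 of 20, and of the tendon matrix genes 0 of 13. Capitals mark the matches in the stretches below, printed 5′ to 3′ along the gene's strand; Isg15 holds 3 overlapping matches, Bst2 2 overlapping ones, and Ifit1 and Ifit3 2 separate ones each.
Isg15, chr4:156200845-156200926, minus strand: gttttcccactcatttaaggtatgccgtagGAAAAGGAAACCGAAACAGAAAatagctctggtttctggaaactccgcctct
Ifit1, chr19:34640755-34640843, plus strand: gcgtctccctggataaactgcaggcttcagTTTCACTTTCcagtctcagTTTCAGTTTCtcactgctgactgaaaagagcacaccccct
Ifit3, chr19:34583343-34583446, plus strand: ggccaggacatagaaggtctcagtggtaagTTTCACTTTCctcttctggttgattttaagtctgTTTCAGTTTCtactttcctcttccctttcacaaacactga
Bst2, chr8:71537557-71537632, minus strand: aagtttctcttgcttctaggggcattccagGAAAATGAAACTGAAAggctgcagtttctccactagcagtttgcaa
A match describes these letters only and is no evidence that a factor was bound.

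The interferon genes were above the control median in most irradiated tendon cells. The summed interferon list had a median of 5.23 UMIs per 10000 in control cells and 27.2 in irradiated cells, where 93 of 100 cells were above the control median and 72 above the control 90th percentile of 14.1. By level of the selected genes, the medians per cell were 5.65 and 33.7 in cells with 3 to 10 UMIs of Tnmd and Kera per 10000, 4.0 and 17.9 at 10 to 30, and 6.15 and 28.5 at 30 or more, where only 27 and 7 cells remained. Summed over cells, 32 of 32 tested genes of the list rose at 3 to 10 and 28 of 29 at 10 to 30, but at 30 or more 4 of 12 rose and 2 fell, with a median log2 ratio of -0.017. Leukocytes were more abundant in the irradiated library and carry such transcripts: after thinning to 2000 UMIs, Ifi27l2a was detected in 30.9% of control and 57.7% of irradiated leukocyte barcodes, against 2.68% and 37.1% of tendon cells. Of 12 tested macrophage markers in tendon cells 6 were lower, 1 higher and 5 neither, and their sum was 177 and 115 CPM, of which Lyz2, a lysozyme gene of myeloid cells, made up 63.3 and 17.9 CPM; in all other barcodes the sum was 3730 and 7771 CPM. Of 7 tested neutrophil markers 2 were higher, 1 lower and 4 neither, with a median of 0.15. The part of leukocyte RNA in the interferon difference was not tested.

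**Figure D3:**
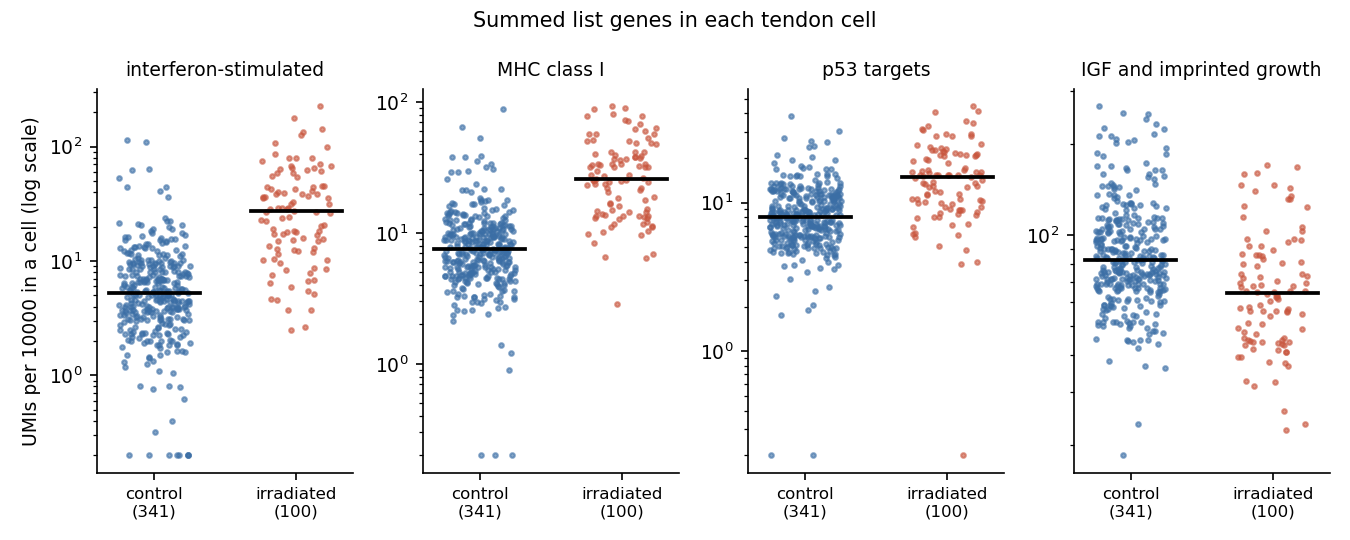
Each point is 1 tendon cell, and the height is the sum of the list's genes in UMIs per 10000 of that cell on a log axis, with cells at 0 drawn at 0.2 and a black bar at the median. Irradiated cells (red, 100) lie above control cells (blue, 341) for interferon-stimulated genes (medians 27.2 and 5.23), MHC class I genes (26.0 and 7.52) and p53 targets (15.0 and 8.00), and lower for imprinted growth genes (64.0 and 82.5).

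MHC class I genes, which present peptides on the cell surface, rose in 18 of 19 cases, with a median of 1.87 against 1.92 in the other collagen-producing cells. B2m, the shared light chain, rose from 322 to 1177 CPM (1.87), H2-D1 from 135 to 625 CPM (2.21) and H2-K1 from 162 to 614 CPM (1.92), each in over 90 of the 100 irradiated cells. The peptide transporter Tap1 (2.11) and the immunoproteasome subunits Psmb8 (2.27) and Psmb9 (2.63) rose with them. Per cell, the summed list had medians of 7.52 and 26.0 UMIs per 10000, and 96 of 100 irradiated cells were above the control median. Summed over cells, 17 of 18 tested genes rose at 3 to 10 UMIs of Tnmd and Kera per 10000 (median 2.16) and 11 of 16 at 10 to 30 (median 1.4). At 30 or more, in 27 control and 7 irradiated cells, 1 of 9 rose, with a median of 0.23.

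Targets of p53, the factor that answers to DNA damage, rose in 11 of 30 cases and fell in none, with a median of 0.54 against 0.60 in the other collagen-producing cells. Cdkn1a, the cell cycle inhibitor p21, rose from 32 CPM in 106 control cells to 227 CPM in 72 irradiated cells, a log2 ratio of 2.83 (2.62 to 3.03). Eda2r, a death receptor, rose from 5.01 to 35.2 CPM (2.81), Phlda3, an inhibitor of Akt, from 48.4 to 143 CPM (1.56), and Ccnd1, cyclin D1, from 13.6 to 54.9 CPM (2.02). Mdm2, which limits p53, rose from 37.5 to 63.1 CPM (0.75), while Trp53 itself was at 75.2 and 83.9 CPM (0.16). The pro-apoptotic gene Bax was at 147 and 213 CPM (0.54) and the stress cytokine Gdf15 at 2.96 and 4.83 CPM in 14 and 6 cells, neither called. In the other collagen-producing cells Gdf15 stood at 5.98 and 26.9 CPM, a difference of ratios of -1.47 (-2.43 to -0.50) that was called.

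DNA synthesis genes fell in 12 of 20 cases and rose in none, with a median of -0.89 against -0.36 in the other collagen-producing cells. The replication helicase subunits Mcm2 to Mcm7 were all lower, from Mcm5 (5.47 and 1.73 CPM, -1.66) to Mcm4 (16.9 and 10.0 CPM, -0.75). Pcna, the sliding clamp, was at 64.1 and 52.1 CPM (-0.30), not called. These counts are small, and only 4 genes of the list remained testable after thinning to 2000 UMIs, where the median was 0.18. The selection itself removed cells with Top2a or Mki67.

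**Figure D4:**
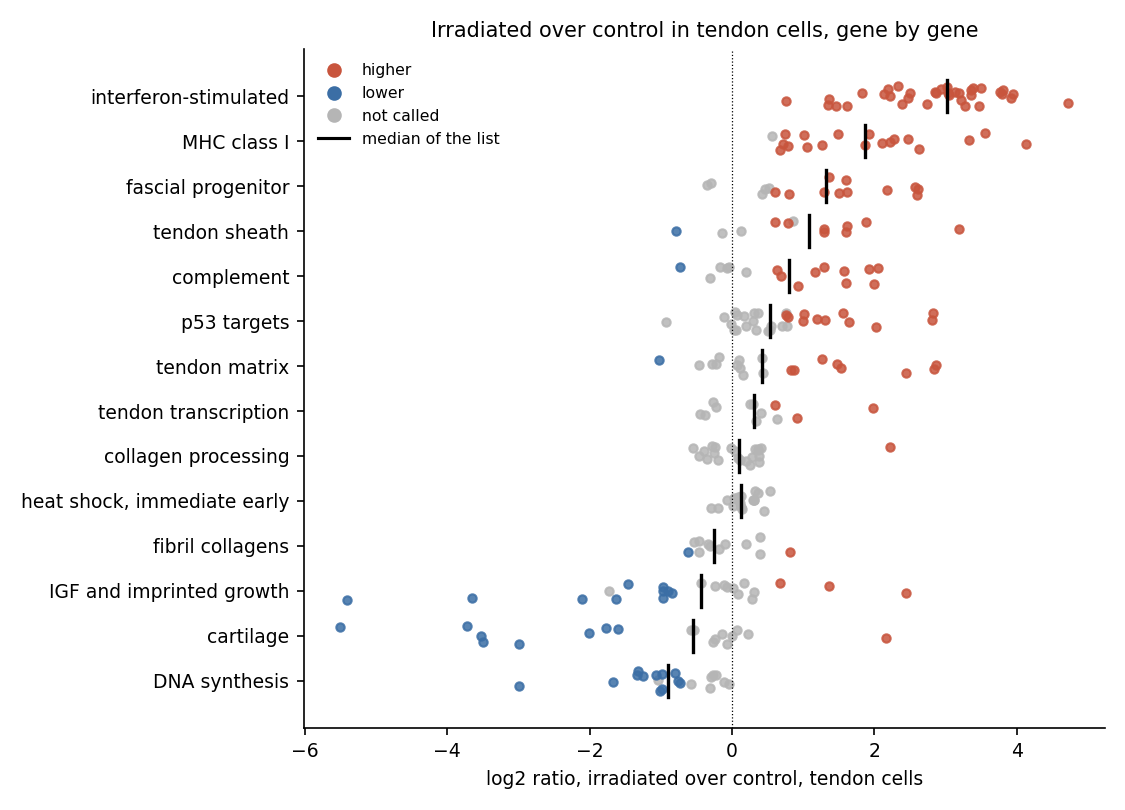
Each point is 1 tested gene, placed by its log2 ratio of irradiated over control in tendon cells, in 14 gene lists; red points were called higher, blue lower, grey neither, and black bars mark the list medians, with genes at 0 in 1 library placed at their bound. The interferon list lies wholly to the right with a median of 3.01, while cartilage, imprinted growth and DNA synthesis genes lie mostly to the left.

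Matrix genes apart from the tendon markers differed gene by gene. Col1a1, Col1a2 and Col3a1, used in the selection, were within 0.11 of equality on the log2 scale. Of 12 other fibril collagen chains Col5a3 rose (91.6 to 162 CPM, 0.82) and Col27a1 fell (136 to 88.7 CPM, -0.61), while Col11a1 stood at 1561 and 1081 CPM (-0.53) and Col12a1 at 1571 and 1136 CPM (-0.47). The Col27a1 call was lost in cells with Scx and Fmod (-0.53), without the Col22a1 cells (-0.55) and at a mitochondrial limit of 5% (-0.52). It was also lost with ratios less their median (-0.56), and without the cells high in Pi16 and Clec3b described below (-0.56). Collagen processing enzymes showed 1 call in 22 and a median of 0.09, beside 8.17% of all tested genes called higher and 7.41% lower. Of 13 leucine-rich proteoglycans 4 rose and 2 fell: Dcn, decorin, rose from 3749 to 6076 CPM (0.70, but 0.28 at 10 or more UMIs of Tnmd and Kera per 10000) and Prelp from 44.7 to 137 CPM (1.62), and Ogn, osteoglycin, fell from 811 to 538 CPM (-0.59). Of 19 proteases and inhibitors 4 rose, Mmp3 (1.87), Mmp19 (1.08), Adamts5 (0.99) and Timp1 (0.78), and none fell. Adamts5 was at -0.039 in the cells with 10 or more UMIs of Tnmd and Kera per 10000.

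Most tested genes of the tendon sheath and of fascial progenitors were higher, in tendon cells as in the rest of the collagen-producing cells. Of 12 sheath genes 8 rose and 1 fell, with a median of 1.08 against 1.30. Prg4, lubricin, rose from 575 to 992 CPM (0.79), Tppp3, a marker of sheath stem cells, from 14.9 to 36.6 CPM (1.29) and Has1, a hyaluronan synthase, from 11.7 to 43.1 CPM (1.88), while its relative Has2 fell from 51.9 to 30.0 CPM (-0.79). Tppp3 was not called at 10 or more UMIs of Tnmd and Kera per 10000 (0.58) or in cells with Scx and Fmod (0.55). Of 16 fascial progenitor genes 11 rose and none fell, with a median of 1.32 against 1.56. Ly6c1, a surface antigen, rose from 79.4 to 483 CPM (2.60) and Ly6a, Sca-1, from 495 to 1509 CPM (1.61); Cd34, a progenitor antigen, rose by 1.6. At least 10 UMIs of Pi16 and Clec3b per 10000 were present in 5 control (1.47%, 0.478 to 3.39%) and 11 irradiated tendon cells (11.0%, 5.62 to 18.8%), a ratio of 7.5 (2.40 to 27.5), beside 4.72% and 28.9% of the other collagen-producing cells. These cells were poor in tendon genes, with Scx at 21.4 and 3.88 CPM and Fmod at 289 and 27.1 CPM, although Tnmd put them inside the selection at 578 and 392 CPM.

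Complement genes rose in 10 of 16 cases and fell in 1, with a median of 0.80: C4b (2.05), Cfb (1.99) and C3 (1.17) were among them, and C3 was at 0.45 and not called without the Pi16 and Clec3b cells, as was C4b (0.95) at 10 or more UMIs of Tnmd and Kera per 10000. Of 25 chemokine and cytokine genes 16 rose and 3 fell. Il6 rose from 16.8 to 47.6 CPM (1.51) and Ccl2, which draws monocytes, from 76.8 to 133 CPM (0.79). Ccl2 was at 0.049 in cells with 10 or more UMIs of Tnmd and Kera per 10000 and at 0.067 in cells with Scx and Fmod, called in neither. The genes that fell were Cxcl12, which retains progenitor cells, from 387 to 221 CPM (-0.81), Cxcl5, which draws neutrophils, from 85.1 to 49.3 CPM (-0.79), and Saa3, an acute-phase gene, from 76.5 to 30.7 CPM (-1.32). In cells without H19 the direction of Cxcl5 turned, to a log2 ratio of 1.42. Cxcl5 and Saa3 were at 514 and 693 CPM and at 341 and 307 CPM in the other collagen-producing cells, so both differences of ratios, -1.22 and -1.17, were called.

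Signalling genes split within their families. Of 17 Wnt genes 6 rose and 4 fell, with a median of -0.03: Sfrp1 fell from 471 to 125 CPM (-1.92) and Sfrp2 from 462 to 117 CPM (-1.98), which moved to -0.60 and 0.39 in cells without H19, whereas Sfrp4 rose from 6.72 to 92.8 CPM (3.79) and the Wnt inhibitor Wif1 from 5.47 to 29.7 CPM (2.44), the last pair in 15 and 16 irradiated cells. Of 26 genes of fibroblast and platelet-derived growth factor signalling and related factors 5 rose and 4 fell. Ptn fell from 731 to 253 CPM (-1.53, and -0.59 in cells without H19) and Mdk, midkine, from 226 to 76.6 CPM (-1.56), and Pdgfa rose from 56.9 to 107 CPM (0.92). Of 24 BMP and GDF genes 6 rose and 3 fell. Bmp2 (1.17) and Bmp4 (1.23), inducers of bone, rose from 9.23 to 20.7 and from 5.58 to 13.1 CPM, but Bmp4 was not called at 10 or more UMIs of Tnmd and Kera per 10000 (0.50) or in cells with Scx and Fmod (0.27). Gdf5, the joint factor, had 33 and 3 UMIs (-1.86, -4.21 to -0.19), and -0.96, not called, in cells with Scx and Fmod. The receptor gene Bmpr1b was at 183 and 206 CPM (0.17) in tendon cells and at 212 and 110 CPM in the other collagen-producing cells, a difference of 1.12 (0.96 to 1.28). Of 21 TGF-beta genes 2 rose and none fell, beside 8.17% of all tested genes called higher and 7.41% lower. The median was 0.02, and Inhba, an activin subunit gene, was among those that rose (0.99).

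**Figure D5:**
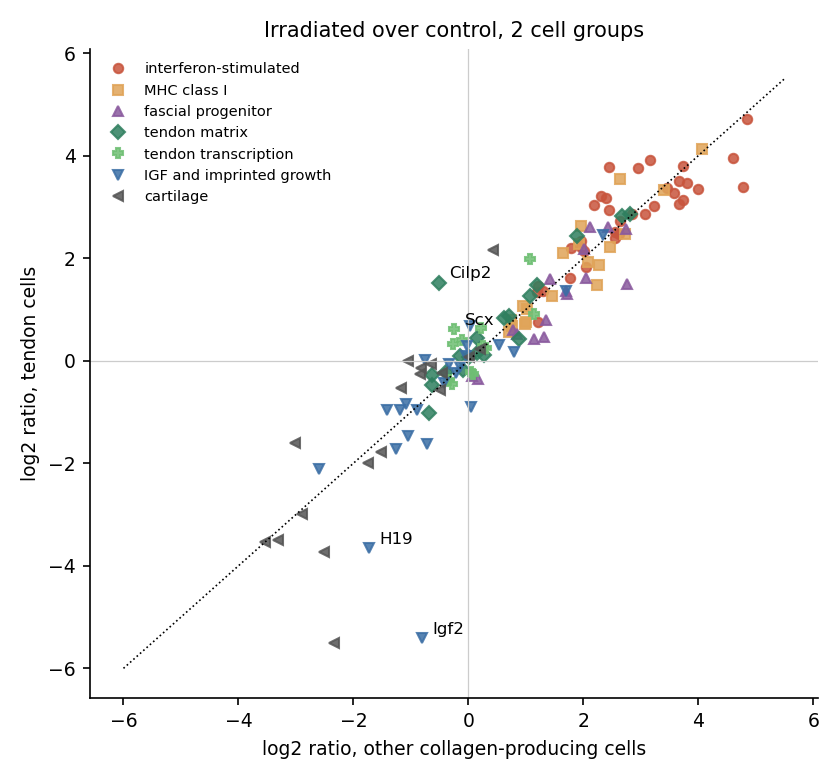
Log2 ratio of irradiated over control in tendon cells (vertical) against the same ratio in the other collagen-producing cells (horizontal) for the tested genes of 7 lists; the dotted line marks equal ratios, and genes at 0 in 1 library are placed at their bound. Most genes lie along the line; Scx and Cilp2 lie above it, and H19 and Igf2 below it.

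Over all genes, those farthest from equality often came from single cells. Of the 12 genes with the highest lower bound 10 had more than 25% of their irradiated UMIs in 1 cell, and 6 had more than 50%: Nrxn3, Gm49313, Reg3g, Hpse2, Krt2 and Ccr7. Hmcn2, a basement membrane protein gene in 9 irradiated cells and 1 control cell, and Ifi27l2a were the others of that group below 25%. Of the 12 genes with the lowest upper bound, Igf2, H19, Col9a2, Col9a3, Wfdc3 and Pkhd1l1 were spread over 43 or more control cells with at most 25% in 1 cell, whereas Lor, Hrnr, Crct1, Krt1 and Klk7, genes of skin, had 51.9% or more in 1 cell and Fabp4, a gene of fat and vessel cells, 36.9%. Without the top cell of each gene in each library 701 genes were called higher and 1274 lower, in place of 1040 and 943, so higher calls were 35.5% and not 52.4% of all calls. For each gene this step takes away 1 of 100 irradiated but 1 of 341 control cells, which by itself tends to lower ratios. The median log2 ratio over all genes moved from -0.05 to -0.14. The shift in calls therefore cannot show how many higher calls came from single cells.

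Of 11 marker lists of other cell types, 10 summed to less in the tendon cells than in all other barcodes of both libraries. For leukocyte and keratinocyte lists the selection set part of this in advance, through its limits on Ptprc and on Krt5 and Krt14. The exception was the osteoclast list, at 574 and 787 CPM in tendon cells against 402 and 504 CPM in the other collagen-producing cells and 276 and 289 CPM in all other barcodes. Nearly all of it was Ctsk, a collagen-degrading protease, at 562 and 764 CPM (0.44), and Acp5, an acid phosphatase, rose from 9.92 to 15.9 CPM (0.68, and 0.30, not called, in cells without H19). Neutrophil markers summed to 80.0 and 74.2 CPM against 1268 and 4776 CPM in all other barcodes, with Ly6g at 0 in both. Endothelial markers summed to 60.3 and 37.6 CPM, T and NK cell markers to 7.07 and 5.87 CPM, and skeletal muscle markers to 11.4 and 8.97 CPM with Myod1, Pax7 and Myf5 at 0. Pericyte markers summed to 83.0 and 109 CPM against 560 and 1147 CPM in the other collagen-producing cells, and Schwann cell markers to 127 and 155 CPM with Sox10 at 0. Keratinocyte markers, with Krt5 and Krt14 of the selection included, summed to 487 and 623 CPM, with 93.6% of the irradiated Krt10 UMIs in 1 cell. Adipocyte markers summed to 146 and 34.5 CPM, almost all from Fabp4 (121 and 5.52 CPM), and Adipoq, the defining hormone gene, was at 0 in both. The part of these transcripts in the differences above was not tested.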

How the data were processed

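Unsorted cells of the tenotomy site, 1 library for the control and 1 for the irradiated group, were sequenced with the 10x 3' version 3 chemistry, per the labels' protocols. The deposited matrices hold raw UMI counts per gene and barcode for 32285 genes, made by the authors with Cell Ranger 5.0.1 per the file headers and build mm10 per the submitters' processing notes. Members and gene lists were chosen with earlier results of these data known. Counts were summed over members in each library and scaled to CPM. Ratios carry exact conditional Poisson intervals, differences of ratios Wald intervals from 4 Poisson counts, and shares exact Clopper-Pearson intervals, all covering counting error only. A gene was called at 1.5-fold or more with an interval that left out equality, among genes with 20 or more UMIs. Named genes were the selection genes, the 12 called genes in each direction whose nearer interval bound lay farthest from equality, and up to 6 called and further textbook members of each of 37 lists; the H19, Col22a1 and Pi16 splits and their genes were chosen after values were seen. Some genes are not reported here. Doublets were scored with Scrublet and left in. Python 3.11.15, numpy 2.4.6, scipy 1.17.1, pandas 2.3.3 and scanpy 1.11.5 were used, and the code was tested on simulated data. Alternatives covered the selection thresholds, doublets, depth, scaling, cell weights and single cells.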

Additional observations from a re-analysis of the deposited data

How the results depend on the processing

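Over all tendon cells 1040 genes were called higher and 943 lower. Of the 17 alternatives for these counts, 12 kept both within 1.5 times. The others gave 664 higher calls for at least 10 UMIs of Tnmd and Kera per 10000, 317 higher and 248 lower for cells with Kera alone (5 and 6 cells), 361 and 262 after thinning to 2000 UMIs, 611 and 473 at a 2-fold threshold, and 561 lower calls in cells without H19. Fewer cells, fewer UMIs or a stricter threshold are part of how the first 4 were built; for the cells without H19 the cause was not tested. Higher calls were 52.4% of all calls, 65.6% in cells without H19, 42.9% in cells with Scx and Fmod and 35.5% without the top cell of each gene, where 701 genes were called higher and 1274 lower. Leaving out the top cell drops 1 of 100 irradiated but 1 of 341 control cells for each gene, which by itself tends to lower ratios. The subsets with Tnmd, with Kera alone, without Col22a1 and without H19 and the counts without the top cell were added after seeing the data.

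Most named genes kept their side of the call. The Scx ratio of 0.61 was no longer called without the Col22a1 cells (0.16), without H19 (0.15), at a mitochondrial limit of 5% (0.53), with each cell weighing the same (0.50), after thinning (0.55) and without its top cells (0.48). At 10 or more UMIs of Tnmd and Kera per 10000 Col9a1 (-1.55), Mcm4 (-0.90), Mcm7 (-0.75), Mylk (0.13) and Adm (0.80) were not called, nor was Alpl (-1.69) in cells with Scx and Fmod. The directions that turned were Actg2 (-1.14), Adamts5 (-0.039), Krt10 (-1.26) and Krt2 (-0.60) at 10 or more UMIs of Tnmd and Kera per 10000, Actg2 (-1.95), Krt10 (-2.64) and Krt2 (-2.28) in cells with Scx and Fmod, and Actg2 (-1.42), Krt10 (-1.67) and Krt2 (-0.47) without the top cell. Without the Pi16 and Clec3b cells Krt10 was at -2.46 and Krt2 at -1.93, and Igfbp2 was at -0.066 with the 5% mitochondrial limit and -1.99 in cells with Tnmd. In cells with Kera alone Cilp (-1.24), Col5a3 (-1.14), Pdzrn4 (4.34), Saa3 (2.76), Scx (-0.23) and Timp1 (-0.0034) turned. In cells without H19 Cxcl5 (1.42), Fgf7 (1.31) and Sfrp2 (0.39) did, and with each cell weighing the same Fgf7 (0.23). The DNA synthesis median was 0.18 after thinning. The causes were not tested.

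No paired analysis was possible because each group had 1 library, and leaving out a replicate was not possible either. Depth limits genes under 20 UMIs, which were not tested, and the 100 irradiated cells limit every share.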

Other observations

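Stress and energy genes of the tendon cells were close to their control levels. Over all tested genes, 8.17% were called higher and 7.41% lower. None of 18 heat shock and immediate early genes was called, with a median log2 ratio of 0.13: the chaperone gene Hspa1a was at 80.4 and 81.4 CPM and the early gene Fos at 679 and 879 CPM (0.37). Of 20 glycolysis and hypoxia genes 2 rose, Ndrg1 (85.9 to 160 CPM, 0.90) and Adm (7.18 to 13.5 CPM, 0.91, but 0.08 without the Pi16 and Clec3b cells), and none fell, with a median of 0.16. Of 20 mechanosensing genes 3 fell and 1 rose. Piezo2, a stretch-gated channel, fell from 214 to 102 CPM (-1.07), while its relative Piezo1 was at 102 and 105 CPM (0.05). Of 15 contractile genes 3 rose, Myh11, Actg2 and Mylk, the first pair with 70.7% and 80.2% of their irradiated UMIs in 1 cell, and Acta2 was at 980 and 786 CPM (-0.32). Of 16 mitosis genes, other than the selected pair, 3 fell and 1 rose, with a median of -0.11.

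The spread of tendon matrix expression between cells differed between the libraries. The summed tendon matrix list ran from 56.7 UMIs per 10000 at the 10th percentile through a median of 101 to 176 at the 90th percentile in control cells, and from 36.2 through 124 to 264 in irradiated cells. The 10th percentile was lower and the 90th percentile higher in the irradiated library. Both also held in the other collagen-producing cells, at 14.6 (control) and 11.3 (irradiated) for the 10th and 89.0 and 93.2 for the 90th percentile. Their median was lower in the irradiated library, at 48.0 and 33.1.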
